A study of Mus musculus with 2 samples.

Results

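The 7 Sox genes Sox9, Sox5, Sox6, Sox4, Sox11, Sox8 and Sox10 held 18 of the 6566 LHX6 intervals of the maxillary arch. Intervals, which are stretches of enriched chromatin listed by the authors, were taken where the annotated gene list named 1 of these genes. They were also taken where the summit, the position of highest density, lay within 500 kb of the Sox9 start or 100 kb of another start. The wider window was used for Sox9 because it lies in a gene desert whose enhancers are far from the gene. LHX6 is a LIM homeodomain transcription factor of the first pharyngeal arch, and the maxillary arch is the part of it that forms the upper jaw and palate. Both libraries came from wild-type CD-1 (CD1) mouse tissue at E11.5, dissected from 47 embryos, with an anti-LHX6 antibody in the first and no antibody in the other, the input. There was 1 library per group, so no value has a replicate error and no difference between libraries could be tested. Positions refer to the mouse genome build NCBIM37, also known as mm9.

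SOX proteins bind DNA through a high-mobility-group box that recognises short cores such as AACAAT and ACAATG and bends the helix. SOX9 starts cartilage formation and is required in neural-crest-derived mesenchyme of the face for the skeleton to form. SOX5 and SOX6 act beside SOX9 at cartilage matrix genes, SOX4 and SOX11 sustain mesenchymal and neural progenitors, and SOX8 and SOX10 are the closest relatives of SOX9, with SOX10 marking neural crest and its glial derivatives.

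An interval was annotated by name to 6 of the 7 genes, compared with 18.3% of 22208 protein-coding genes. Of the 6 genes other than Sox9, 5 had an interval by the rule above, compared with 48.6% of protein-coding genes judged by the same gene list and 100 kb window. Sox9 had 7 intervals, Sox6 had 4, Sox11 had 3, Sox4 had 2, and Sox5 and Sox8 had 1 each. Sox10 had none. Because the tissue was pooled and holds several cell types, a low height cannot be told apart from binding in few cells. None of the 18 intervals overlapped any of the 6 intervals listed for the input. With an input list that short, few of the 6566 LHX6 intervals could overlap it, so the absence says little about these 18.

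The strength of an interval is given here as its height, the highest density of 150 bp fragments inside it, which is the authors' value and is compared only within this list. The 18 heights ran from 16 at Sox8 to 63 at the interval 232.1 kb downstream of Sox9, with a median of 25 (quartiles 21.25 and 30). All 6566 intervals had a median of 22 (quartiles 18 and 28). Of the 18 intervals, 8 reached the upper quartile, a height of 28, as did 27.2% of all intervals because of ties. Heights above those of 90% of all intervals were reached by 3 of the 18, at 63, 52 and 46, and by 9.88% of all intervals. These 3 belonged to Sox9 and Sox4.

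**Figure D1:**
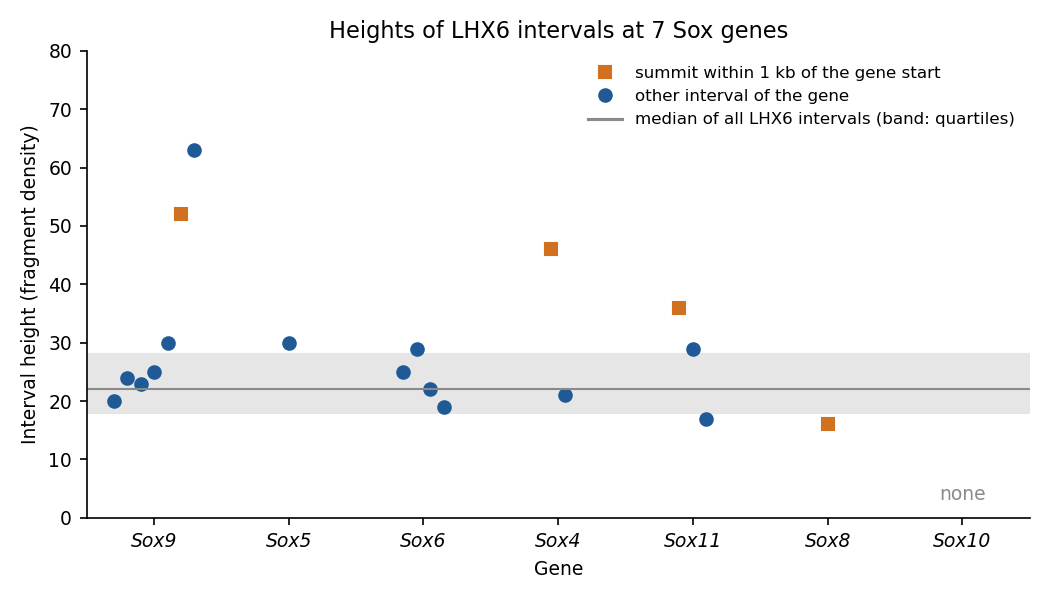
Heights of the 18 LHX6 intervals (fragment density, y axis) for each of 7 Sox genes (x axis), with squares for summits within 1 kb of the gene start and circles for the others. The grey line is the median of all LHX6 intervals, 22, and the band runs from 18 to 28. Sox9 holds the highest interval, 63, followed by the Sox9 and Sox4 starts at 52 and 46, while the Sox8 start, at 16, is below the band.

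The sequences at the Sox9 intervals on which the results turn are shown first, as 200 bases of the mm9 genome. Capitals mark motifs read on either strand. TAATTA is the LIM homeodomain core, and TGATTG was counted with it, as was TGATTA, since these hexamers were frequent at LHX6 summits in earlier results of these data. These 3 are called homeodomain-type here, and the related TAATTG is in capitals without being counted. The SOX cores were AACAAT together with ACAATG plus the longer AACAAAG, some of which overlap each other. The E-boxes searched, CATCTG or else CAGCTG, are sites for TWIST and its relatives. The hexamer TGACAG is bound by TALE homeodomain factors such as MEIS. The first is the highest interval, the next an upstream one inside a noncoding gene, and the others are the sequence just upstream of the gene start and the interval with most homeodomain-type sites.

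Sox9 downstream 232.1 kb, chr11:112875548-112875747, plus strand: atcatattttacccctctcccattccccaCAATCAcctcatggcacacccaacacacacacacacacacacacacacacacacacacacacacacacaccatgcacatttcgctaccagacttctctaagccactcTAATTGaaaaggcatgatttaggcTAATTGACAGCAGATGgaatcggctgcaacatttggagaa
Sox9 upstream 19.8 kb, chr11:112623660-112623859, plus strand: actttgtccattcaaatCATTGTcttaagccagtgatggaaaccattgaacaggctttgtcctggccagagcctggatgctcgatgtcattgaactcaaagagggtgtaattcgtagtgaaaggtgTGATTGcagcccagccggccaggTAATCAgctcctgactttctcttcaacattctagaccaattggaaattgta
Sox9 start, 200 bases upstream, chr11:112643338-112643537, plus strand: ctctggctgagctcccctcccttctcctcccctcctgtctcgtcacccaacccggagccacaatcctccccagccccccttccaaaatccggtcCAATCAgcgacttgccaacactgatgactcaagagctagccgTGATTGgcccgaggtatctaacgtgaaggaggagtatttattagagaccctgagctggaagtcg
Sox9 upstream 464.0 kb, chr11:112179484-112179683, plus strand: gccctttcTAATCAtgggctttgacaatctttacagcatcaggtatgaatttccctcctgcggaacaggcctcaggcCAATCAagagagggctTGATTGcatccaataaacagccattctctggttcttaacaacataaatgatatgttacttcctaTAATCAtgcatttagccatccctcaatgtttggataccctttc

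Sox9 (ENSMUSG00000000567.4, chr11:112643538-112649074, plus strand), the cartilage master gene, had an interval on its own start. It covered chr11:112642989-112643865 with a height of 52 and a mean density, the average over 32 bp bins of the interval, of 18.5. Its summit lay 82 bp upstream of the transcription start and it overlapped 1 CpG island. Among the 2354 intervals within 1 kb of an annotated gene start it ranked 24, so 98.8% of these were lower. The other 6 Sox9 intervals were annotated to no gene by the authors, whose list reached at most 11520 bp upstream of a gene.

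The highest Sox9 interval lay downstream of the gene. It covered chr11:112875228-112876465 in intergenic sequence, with a height of 63, a mean density of 20.2 and no CpG island. It ranked 138 of all 6566 intervals and 127 of the 4212 intervals over 1 kb from an annotated gene start, called distal here. No other interval lay between the Sox9 start and this one or within 231.4 kb of its edges.

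The 5 upstream Sox9 intervals fell into a near one and a far group. The near one, chr11:112623391-112624227, lay 19.8 kb upstream with a height of 30, above 73.8% of distal intervals, and its summit was inside the noncoding gene BC006965. The far group comprised chr11:112311369-112312011 at 331.8 kb with a height of 25 and chr11:112273559-112274129 at 369.6 kb with a height of 23. It also held chr11:112179249-112179971 at 464.0 kb with a height of 24, and chr11:112165388-112166190 at 477.7 kb with a height of 20. These 4 were near the overall median of 22, and none overlapped a CpG island. The nearest protein-coding start to each was that of Gm11678, a small gene model, and not that of Sox9. In the order given it lay 18794, 18998, 113366 and 127158 bp away. These 4 are counted at Sox9 by the window rule alone, and which gene they act on was not tested. A stretch of 312.0 kb between the summits of the near interval and the far group held no interval.

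Mean density ranked all 4 of the far intervals lower than height did. That at 464.0 kb had a mean density of 7.39, higher than 0.335% of all intervals, while its height exceeded 57.2% of them. For that at 477.7 kb the share of intervals below it was 9.47% by mean density and 34.3% by height. At 331.8 kb these shares were 37.7% and 61.6%, and at 369.6 kb they were 42.7% and 52.3%. The Sox9 start and the downstream interval were above 97.0% and 98.0% of all mean densities, close to their height ranks.

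**Figure D2:**
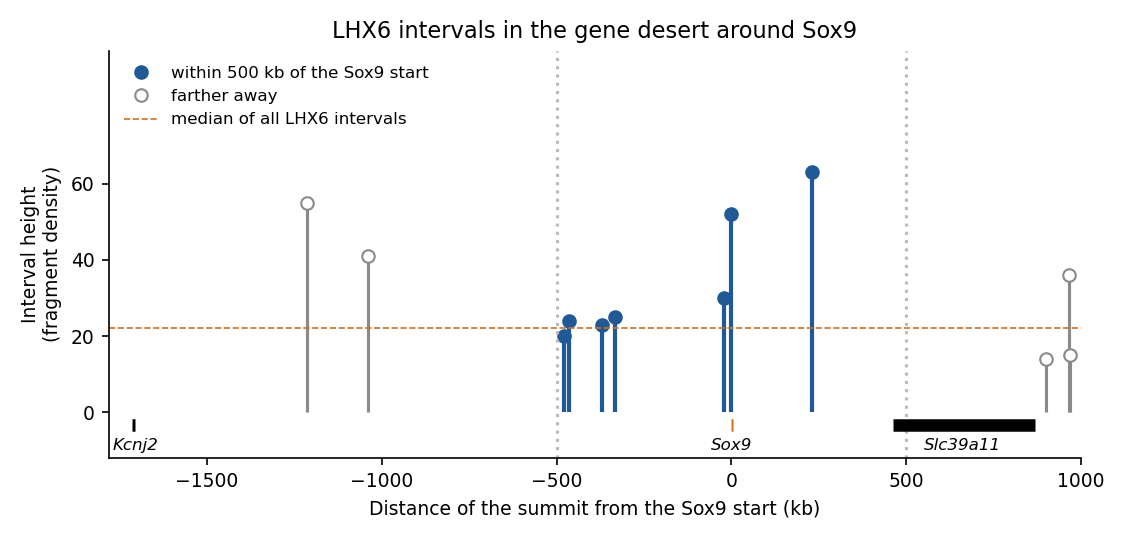
LHX6 intervals by distance of the summit from the Sox9 start (kb, x axis, negative upstream) and height (fragment density, y axis). Filled points lie within 500 kb, open points farther away, and bars under the axis mark Kcnj2, Sox9 and Slc39a11. The 2 tallest filled points are the Sox9 start at 52 and the interval 232.1 kb downstream at 63, and the 4 between 331.8 kb and 477.7 kb upstream reach 20 to 25.

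The number of intervals around Sox9 was above that of most genes. The 1 Mb centred on the Sox9 start held 7, compared with a median of 3 (quartiles 1 and 5) in the same window around all protein-coding genes and with 2.57 per Mb over the genome. Of protein-coding genes, 18.1% had 7 or more. The sequence between the end of Kcnj2 and the edge of Slc39a11 spans 2.17 Mb. It holds Sox9 and a small protein-coding model, Gm11678, and had 9 intervals in all, or 4.15 per Mb. Of the 6 neighbouring genes examined (Kcnj2, Kcnj16, Map2k6, Slc39a11, Sstr2 and Cog1), the gene list named only Kcnj16, which encodes a potassium channel subunit, with a height of 22 at 6.12 kb upstream. That is 16.7% of the 6, compared with 18.3% of protein-coding genes. A summit within 100 kb of the start was found for 5 of the 6, and for 47.6% of protein-coding genes.

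The first intervals beyond the 500 kb window lay on either side at larger distances. On the downstream side the next was 901.8 kb away with a height of 14, annotated by the authors to D11Wsu99e and D11Wsu47e, and 2 more within 1 Mb were annotated to Cdc42ep4, with heights of 36 and 15. On the upstream side the next lay 1.04 Mb and 1.21 Mb from Sox9, still inside the desert, with heights of 41 and 55.

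Sox6 (ENSMUSG00000051910.7, chr7:122614858-123182258, minus strand), a cofactor of SOX9 in cartilage, had 4 intervals, all in introns. They lay 148.7 kb, 287.5 kb, 347.3 kb and 552.6 kb downstream of the outermost GENCODE start, with heights of 25, 29, 22 and 19. The authors' distances were 141.0 kb, 279.8 kb, 339.6 kb and 544.9 kb, measured from an inner start. None overlapped a CpG island, and none was nearer than 43.95 kb to any annotated Sox6 transcript start. The highest, chr7:122894477-122895083, was above 71.4% of distal intervals, and the lowest, chr7:122629320-122629905, above 26.0%. Among 5266 gene symbols in the authors' lists, 2.85% had 4 or more intervals.

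Sox5 (ENSMUSG00000041540.9, chr6:143776945-144730497, minus strand), the closest relative of Sox6, had 1 interval by the rule, in an intron at chr6:144128887-144129438. Its height was 30 and its mean density 13.4, above 85.8% of all intervals. It lay 601.2 kb from the outermost GENCODE start and 28.7 kb downstream of the start the authors used, which belongs to the shorter Sox5 transcripts. A further pair of intervals lay inside the Sox5 gene but outside the rule. That at chr6:144627261-144627957, 102.8 kb from the outer start and so just past the 100 kb window, had a height of 22 and was annotated to 4933425H06Rik. That at chr6:144247426-144248339, 482.5 kb from the outer start and 89.9 kb upstream of the nearest inner one, had a height of 14 and no annotated gene.

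Both genes are long, and a long gene has more room for intervals. Of 200 protein-coding genes of 500 kb or more, 59.5% had a summit inside and 14% had 4 or more. The median was 1 (quartiles 0 and 2), compared with 4 in Sox6 and 3 in Sox5 counted over the whole gene. Per Mb of gene these were 7.05 in Sox6, 3.15 in Sox5 and 1.96 over the 200 long genes together.

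**Figure D3:**
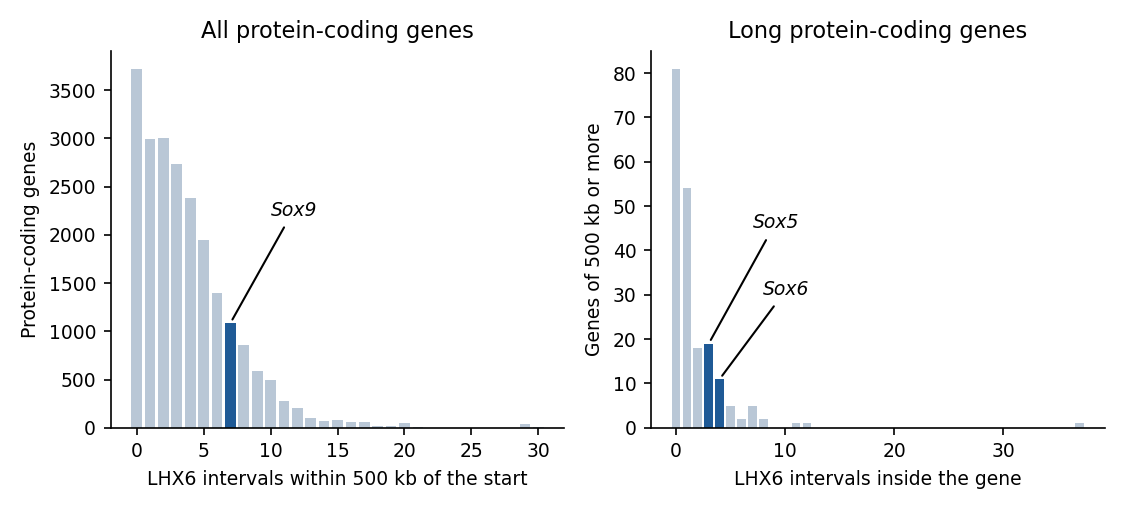
Left, number of protein-coding genes (y axis) by the number of LHX6 intervals within 500 kb of the start (x axis), with the bar that holds Sox9, 7 intervals, in dark blue. Right, number of genes of 500 kb or more by the number of intervals inside the gene, with the bars that hold Sox5 (3) and Sox6 (4) in dark blue. The medians are 3 in the left panel and 1 in the right, below all 3 marked genes.

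The sequences at the highest Sox6 interval and at the Sox5 interval are shown because each held 3 homeodomain-type sites together with both AACAAT and ACAATG. Some of these sites share bases. At Sox5 the AACAAT overlapped a TGATTG site on the other strand, and at Sox6 AACAAT and ACAATG overlapped each other. Capitals are as above.

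Sox5 intron, chr6:144129180-144129379, plus strand: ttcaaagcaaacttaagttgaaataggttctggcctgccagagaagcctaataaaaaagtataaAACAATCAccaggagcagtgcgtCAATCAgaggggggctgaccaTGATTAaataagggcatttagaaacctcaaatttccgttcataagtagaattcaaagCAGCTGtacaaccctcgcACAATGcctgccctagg
Sox6 intron, 287.5 kb from the start, chr7:122894700-122894899, plus strand: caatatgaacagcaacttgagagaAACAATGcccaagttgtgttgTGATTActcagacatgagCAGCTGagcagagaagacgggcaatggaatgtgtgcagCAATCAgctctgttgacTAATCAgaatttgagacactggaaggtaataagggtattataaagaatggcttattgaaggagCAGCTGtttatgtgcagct

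Sox4 (ENSMUSG00000076431.3, chr13:29040788-29045582, minus strand) and Sox11 (ENSMUSG00000063632.5, chr12:28025562-28027574, minus strand), the progenitor factors of the SOXC group, had their intervals on and next to the gene. At Sox4 the start held an interval of height 46 (chr13:29044965-29046104, summit 14 bp downstream), rank 43 of the 2354 at gene starts. An interval of height 21 (chr13:29043179-29044946, summit in an exon 1.74 kb downstream) followed after a gap of 19 bp. Both overlapped a CpG island.

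At Sox11 the start held an interval of height 36 (chr12:28025383-28028344, summit 86 bp downstream), rank 124 at gene starts and, at 2961 bp, the longest of the 18. Intervals of height 29 (chr12:28022223-28024887) and 17 (chr12:28019798-28020656) lay 3.14 kb and 7.41 kb downstream. The authors placed both in the gene, while the GENCODE model used here is 2.01 kb long and leaves them outside. The first 2 overlapped a CpG island and the last did not. At both genes the interval on the start was the highest and those farther downstream were lower. In the authors' lists 5.66% of symbols had 3 or more intervals. These 5 intervals of Sox4 and Sox11 were the only ones of the 18 with another interval within 10 kb, as 17.3% of all intervals had.

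**Figure D4:**
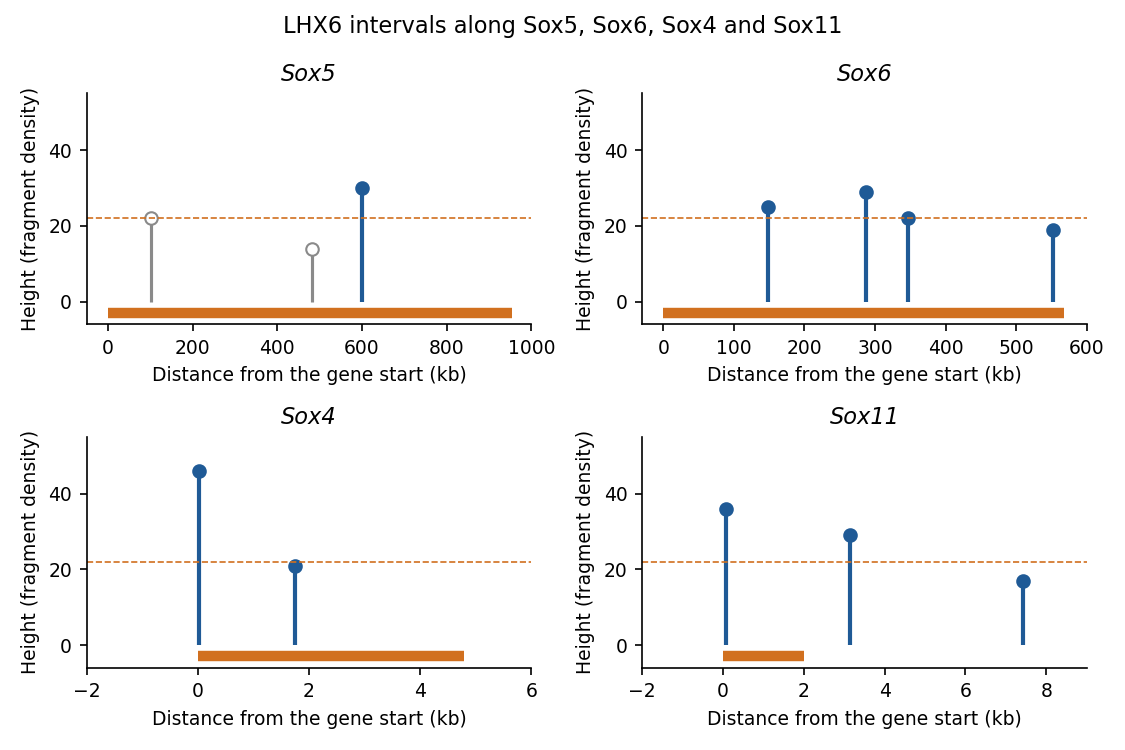
LHX6 intervals along 4 genes, by distance of the summit from the outermost gene start (kb, x axis) and height (fragment density, y axis). Orange bars are the GENCODE genes, open points are the 2 intervals of Sox5 outside the rule, and the dashed line is the median of all intervals, 22. The tallest points of Sox4 and Sox11, at 46 and 36, stand on the start, and those of Sox5 and Sox6 lie far inside the gene.

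Sox8 (ENSMUSG00000024176.4, chr17:25702837-25707631, minus strand), a relative of Sox9 in the SOXE group, had the lowest of the 18 intervals. It covered chr17:25707146-25708004 with a height of 16, its summit was 49 bp upstream of the start, and it overlapped a CpG island. It was also annotated to Tmem112. Of intervals at gene starts 10.6% were lower. The third member of that group, Sox10 (ENSMUSG00000033006.8, chr15:78985343-78994920, minus strand), had no interval within 100 kb. The nearest lay just past that distance, 101.5 kb downstream at Ankrd54, with a height of 27, and the next on the other side was 163.9 kb away at Pla2g6, with a height of 29.

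A start with an interval within 1 kb was found for 4 of the 7 genes (Sox9, Sox4, Sox11 and Sox8), compared with 11.7% of protein-coding genes. CpG content goes with such intervals. Among genes with a CpG-rich start (observed to expected CpG of 0.6 or more and at least 50% GC over 500 bp), 21.9% had one. By that measure Sox9, Sox5, Sox11 and Sox8 were CpG-rich, with ratios of 0.703, 0.706, 0.923 and 0.662, and 3 of these 4 had an interval at the start. Sox4 (0.559) was below the limit and had one, and Sox6 (0.514) and Sox10 (0.326) were below it and had none. The part of CpG content in these start intervals was not tested.

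The heights at the 4 starts, 52, 46, 36 and 16, had a median of 41, and 3 of them were far above the median of 21 over all gene starts while that of Sox8 was below it. The 14 distal Sox intervals had a median of 24.5 (lowest 17, highest 63), compared with 23 over all distal intervals. A CpG island was overlapped by 6 of the 18 (33.3%), that is by all 4 starts and by 1 further interval each at Sox4 and Sox11, compared with 41.6% of all intervals.

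At least 1 of the 3 homeodomain-type hexamers lay within 100 bp of the summit in 11 of the 18 intervals (61.1%, exact Clopper-Pearson 95% interval 35.8 to 82.7). The share over all intervals was 50.1%. In the distal ones it was 9 of 14 (64.3%, 35.1 to 87.2), compared with 62.8% of all distal intervals, which lies inside the interval of the Sox share. In windows 2 kb to either side of the 18 summits it was 4 of 36 (11.1%), compared with 20.1% in the same windows of all intervals. In the flanks of the 14 distal summits it was 14.3%, compared with 20.5% for all distal intervals. These intervals cover counting error only, and the hexamers were chosen as described above.

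There were 22 such sites, of which TGATTG gave 12, while TGATTA gave 7 with the other 3 from TAATTA. Of the 22 sites, 13 lay within 50 bp of the summit, 9 of them TGATTG, 3 TGATTA and 1 TAATTA. The 50 bp on either side make up much of the window searched, and sites were not counted this way over all intervals. Whether the sites gather at the summit was therefore not tested. TGATTG was present in 9 of the 18 intervals (50%, 26.0 to 74.0), compared with 32.3% of all intervals. In the distal ones it was 7 of 14 (50%, 23.0 to 77.0), compared with 37.7% of all distal intervals. Both background shares lie inside the ranges of the Sox shares. The Sox9 interval 464.0 kb upstream had 4, a pair of TGATTG 20 bp and 4 bp to the left of the summit and a TGATTA farther out on each side. The Sox5 interval and those of Sox6 at 287.5 kb and 347.3 kb had 3 each, the last including a pair of TAATTA. At least 3 sites were thus present in 4 of the 18 (22.2%) and in 7.17% of all intervals. They were present in 4 of the 14 distal ones (28.6%) and in 10.4% of all distal intervals. The limit of 3 sites was chosen after the values were seen, so the comparison is no test. With 4 intervals, that difference rests on few sites. More than 1 site was present in 6 of the 18 (33.3%) and in 21.5% of all intervals. In the distal ones the shares were 5 of 14 (35.7%) and 29.3%. Both gaps were smaller than with at least 3 sites.

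At Sox9, 6 of the 7 intervals had at least 1 of the 3 hexamers (85.7%, 42.1 to 99.6). The shares of 50.1% over all intervals and 62.8% over all distal ones lie within that range. The exception was the interval 331.8 kb upstream, which had 3 E-boxes instead, at -4, 16 and 60 bp from the summit. The downstream interval of height 63 had 1 TGATTG, 68 bp to the left of the summit, and a pair of TAATTG to the right, of which the second ran into TGACAG and then into an E-box. TAATTG was present in 18.7% of all distal intervals, and TGACAG in 15.4%. Its summit lay at the right-hand edge of a CA repeat of 48 bases, visible in the sequence above. A CA repeat of 20 or more bases was found near the summit in 1.07% of all intervals. Whether reads were placed less reliably there was not tested.

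TGATTG followed by G reads CCAATCA on the other strand and so contains the CCAAT box, which the factor NF-Y binds at many gene starts. At the Sox9 start both TGATTG sites, 21 bp to either side of the summit, were followed by G, as was the single site at the Sox4 start. Over all gene starts with a TGATTG site 71.0% had one followed by G, compared with 32.1% of distal intervals with a TGATTG site. Of the 12 sites at Sox genes 5 were followed by G, and the other 2 were in the far intervals 464.0 kb and 477.7 kb upstream of Sox9. The sequence upstream of the Sox4 start is shown because its only homeodomain-type site is of this kind.

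Sox4 start, 200 bases upstream, chr13:29045583-29045782, minus strand: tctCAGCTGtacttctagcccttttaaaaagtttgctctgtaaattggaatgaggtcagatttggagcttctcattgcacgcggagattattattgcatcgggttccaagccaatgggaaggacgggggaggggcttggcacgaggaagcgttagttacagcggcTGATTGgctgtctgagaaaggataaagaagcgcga

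The Sox11 and Sox8 starts and the downstream intervals of Sox4 (1.74 kb) and Sox11 (3.14 kb) had none of the motifs searched within 100 bp of the summit. Their windows were rich in G and C, from 65.5% to 72.0%, compared with a median of 42.25% in the 14 distal Sox intervals and 46.5% in all distal intervals. The downstream intervals of Sox4 and Sox11 are themselves counted among those 14. That of Sox4 lay 0.829 kb from another Sox4 transcript start. The Sox11 interval 7.41 kb downstream had 1 TGATTG, 69 bp from the summit.

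SOX cores lay within 100 bp of the summit in 5 of the 18 intervals (27.8%, 9.70 to 53.5), compared with 15.7% of all intervals, and in 5 of the 14 distal ones (35.7%, 12.8 to 64.9), compared with 19.5% of all distal intervals. Both background shares lay within the 95% intervals of the Sox shares. The 5 were those of Sox9 at 369.6 kb and 19.8 kb upstream, of Sox5, and of Sox6 at 287.5 kb and 552.6 kb. All 5 had ACAATG, and those of Sox5 and Sox6 also had AACAAT. For ACAATG alone, singled out after its values were seen, the share was thus also 27.8% (9.70 to 53.5), and 6.55% of all intervals held it. In distal intervals the shares were 35.7% (12.8 to 64.9) and 8%. Both background shares of ACAATG lay below the Sox ranges, which rest on 5 intervals. As this core was picked on its values, the comparison is no test. In both Sox6 intervals the pair overlapped, as AACAATG, 11 bp from the summit in the one at 552.6 kb. In the flanking windows of the 18 intervals SOX cores were found in 9 of 36 (25%), close to the share at the summits and to the 23.0% in the flanks of all intervals.

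E-boxes lay in 7 of the 18 intervals (38.9%, 17.3 to 64.3), compared with 33.7% of all intervals. All 7 were distal, so the share of distal Sox intervals was 7 of 14 (50%, 23.0 to 77.0), compared with 43.1% of all distal intervals. Of the 7, 4 were at Sox9, where CATCTG was present at 477.7 kb, 369.6 kb and 331.8 kb upstream and at the downstream interval. CATCTG was present in 5 of the 14 distal Sox intervals (35.7%, 12.8 to 64.9) and in 30.1% of all distal intervals. The Sox5 interval also held TGATTGAC, the first part of the site that PBX factors bind with MEIS or PREP partners, at chr6:144129265-144129272 on the minus strand. It was present in 1.49% of all intervals. A match of letters is a description and does not show which protein was bound.

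**Figure D5:**
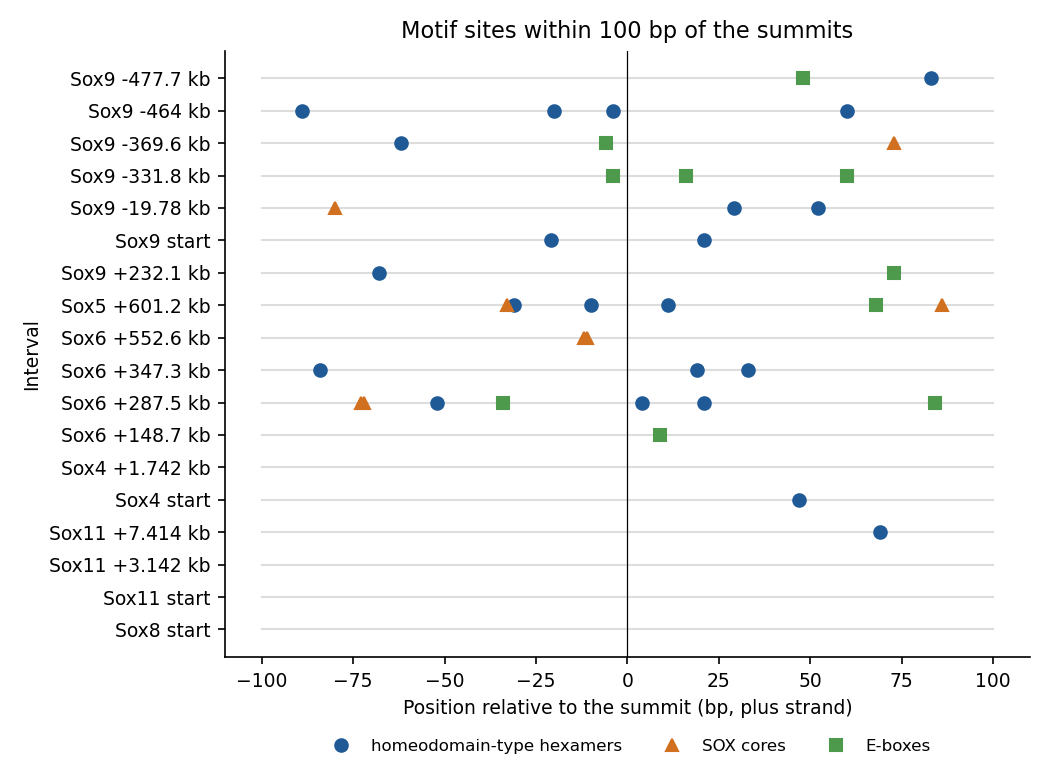
Positions of motif sites relative to the summit (bp, x axis) in the 18 intervals (rows, named by gene and distance from its start in kb). Circles are homeodomain-type hexamers, triangles SOX cores and squares E-boxes. Of the 22 circles 13 lie within 50 bp of the summit, a count not compared with all intervals, and the rows of the Sox11 and Sox8 starts hold no site.

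Genes that SOX9 acts on in cartilage, or that act in the same tissue, had intervals about as often as other genes. Of 22 such genes 4 were named in the gene list (18.2%), compared with 18.3% of protein-coding genes, and 11 had a summit within 100 kb of the start, as did 47.6% of protein-coding genes. Trps1, which encodes a zinc finger repressor of transcription, had 4 intervals with the highest of height 43 in an intron (chr15:50529147-50530711). Wwp2, which encodes a ubiquitin ligase and is the host gene of a cartilage microRNA, had 3 with the highest of height 28 (chr8:109992290-109993205). Col11a1 had 1 at its start with a height of 18 and Col2a1, the main cartilage collagen gene, 1 in the gene with a height of 17, 11.6 kb from its start. The lists held Acan, Comp, Matn1 and Hapln1 among the genes without one.

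Of 13 other SOX family genes 3 were named in the gene list (23.1%), compared with 18.3% of protein-coding genes. They were Sox12, the third SOXC gene beside Sox4 and Sox11, with an interval of height 22 whose summit was 582 bp inside the gene (chr2:152221840-152224131), Sox1 with a height of 17 at 5.12 kb upstream, and Sox21 with a height of 12 at 3.96 kb downstream. These heights lay below or at the overall median of 22. Of the 11 genes of this list found in the annotation used, 6 had a summit within 100 kb of the start. The share of protein-coding genes with one was 47.6%.

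Chromatin binding gives no measure of expression, so cell types were read only as genes with or without an interval. Of 6 facial mesenchyme genes 5 had one (Prrx1, Alx4, Msx1, Pdgfra and Twist1, with highest heights from 19 to 40) and Alx1 had none. Of 6 neural crest glia genes, Sox10 among them, and of 4 endothelial genes none had one, and of 6 facial epithelium genes Grhl3 and Krt8 did, with heights of 34 and 15. These lists are short, and 18.3% of all protein-coding genes were named. The groups differed less by summits within 100 kb of the start, which 5 of the 6 mesenchyme genes had, as did 2 of the 6 glia genes, 2 of the 4 endothelial genes and all 6 epithelium genes. Among all protein-coding genes 47.6% had such a summit. The part of other cell types in the Sox intervals was not tested.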

How the data were processed

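The deposited table gives, for each interval of 1 LHX6 ChIP and 1 input library, 2 kinds of signal, the highest and the mean fragment density, as the authors' values with no fold enrichment or p-value. Per the labels' protocols, BWA placed the reads on mm9, each was lengthened to a 150 bp fragment, and 20 µg of chromatin went into the LHX6 ChIP. The submitters' processing notes name MACS, without a version. Depth is unknown, since read totals were not given in the sources used here, nor were calling thresholds or any scaling between libraries. Intervals were joined to GENCODE M1 genes on NCBIM37, which no interval passed at a chromosome end. The start of a gene was the 5′ end of its longest record. Distal means that no distance listed by the authors was 1 kb or less. Motifs were searched on both strands in 200 bp around summits, 79.2% of which lay on a 32 bp grid, in Python 3.11.15 with pandas 2.3.3. Shares carry exact Clopper-Pearson 95% intervals from scipy 1.17.1. The scan was tested on simulated sequences with planted motifs. No test between groups was possible with 1 library each. The genes, lists and motifs were chosen with earlier results of these data known, and TGATTGG, the CA repeats, the count of 3 or more sites and the CpG-rich starts were chosen after the values were seen. Named were all 7 genes with every interval, and of the other lists each gene with an interval. Alternatives were other windows, height limits and motif windows. Older gene names were matched through a RefSeq table used for names alone.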

Additional observations from a re-analysis of the deposited data

How the results depend on the processing

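Of 27 alternatives, 25 stayed within 1.5 times the count, or within the 95% interval, of the values reported. With 18 intervals these 95% intervals are wide, so the count of 25 is a loose check for the shares. The 18 intervals became 8 when only heights of 28 or more, the upper quartile, were kept, since the limit itself removes lower intervals. Other windows around the genes, or the gene list alone, gave 12 to 21, and 20 when the 2 further intervals inside Sox5 were added, an alternative chosen after seeing the data. At least 5 of the 7 genes kept an interval under each alternative tried. The share of summits with a homeodomain-type hexamer was 38.9% to 66.7% over the planned windows, and 11.1% in windows 2 kb to either side, which lie off the summits by construction. Within 50 bp of the summit it was 38.9% at Sox genes and 39.0% over all intervals, and within 250 bp 61.1% and 62.0%, so the difference from all intervals at 100 bp was absent in both. The share with a SOX core ran from 11.1% to 44.4%, with 8.01% and 35.4% over all intervals in the narrowest and widest windows. Mean density in place of height moved the median share of intervals below a Sox interval from 61.6% to 53.9%. No paired analysis was possible because each group had 1 library and no result came from a test. With 18 intervals the shares are wide, and the unknown read totals leave heights comparable only within the list.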

Other observations

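The upstream part of the Sox9 desert held 2 further intervals, outside the 500 kb window. Human SOX9 has craniofacial enhancers far upstream, in a region altered in Pierre Robin sequence, a disorder of jaw and palate. The intervals were chosen after their values were seen and get no test. The interval at chr11:111429921-111430740, 1.21 Mb upstream, had a height of 55, above 94.9% of distal intervals, and that at chr11:111604452-111605231, 1.04 Mb upstream, a height of 41, above 88.7%. Neither overlapped a CpG island or had an annotated gene. Both were higher than each of the 4 intervals between 331.8 kb and 477.7 kb upstream (20 to 25). Whether either corresponds to a known human enhancer was not tested. The farther window held 2 homeodomain-type hexamers, 1 TAATTG and 1 E-box, and the nearer held 1 homeodomain-type hexamer, 1 SOX core and 1 E-box, in capitals here.

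Sox9 upstream 1.21 Mb, chr11:111430236-111430435, plus strand: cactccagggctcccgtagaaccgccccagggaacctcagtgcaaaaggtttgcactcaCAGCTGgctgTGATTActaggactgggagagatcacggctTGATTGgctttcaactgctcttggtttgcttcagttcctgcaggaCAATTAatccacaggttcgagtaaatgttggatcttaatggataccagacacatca
Sox9 upstream 1.04 Mb, chr11:111604700-111604899, plus strand: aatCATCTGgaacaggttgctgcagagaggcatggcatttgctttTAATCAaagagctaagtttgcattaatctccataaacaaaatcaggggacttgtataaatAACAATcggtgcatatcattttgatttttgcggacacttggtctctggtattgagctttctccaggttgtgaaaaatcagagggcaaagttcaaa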
